A study of Mus musculus with 6 samples.

Results

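TCF/LEF factors and their β-Catenin co-regulators were read from RNA-Seq of TuBo cells: the DNA-binding factors Tcf7, Tcf7l1, Tcf7l2 and Lef1, the Groucho/TLE corepressors Tle1, Tle2 and Tle3, the adaptors Bcl9 and Bcl9l, and the coactivator Pygo2. The 10 genes were found by symbol in the deposited table, which holds 21960 genes. The TuBo line comes from a tumor of the mammary gland of a BALB/c mouse with the MMTV-NeuT transgene, in which a promoter of mammary tumor virus drives an activated rat Her2/neu oncogene, and it serves as a model of HER2+ breast cancer. Libraries from 3 mock samples, labelled wt, were compared with libraries from 3 samples overexpressing p140Cap, the product of Srcin1, from a retroviral cDNA in clones that were grown from single cells and then pooled. The paper describes no such cloning of mock cells. Effects of p140Cap and of how the cells of each group were derived therefore cannot be told apart in any result below. Both groups carry the NeuT transgene, and neither an age nor a treatment applies to these cultured cells. The labels name the cells Balb-NeuT and speak of mice in one place, and the TuBo cells of the paper are what was taken to be meant.

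In canonical Wnt signaling, stabilized β-Catenin enters the nucleus, where it has no DNA-binding domain of its own and is brought to chromatin by TCF/LEF factors through their HMG box. Without β-Catenin, TCF/LEF factors hold Groucho/TLE proteins, which recruit histone deacetylases and keep targets silent. When β-Catenin takes their place, BCL9 or BCL9-like links it to a Pygopus protein, which reads methylated histone tails. The factors are not interchangeable: Tcf7l1 acts mostly as a repressor, Lef1 mostly as an activator, and Tcf7 and Tcf7l2 as either, depending on isoform and partner.

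The 4 TCF/LEF genes share the HMG box, which is the part that binds DNA and the part in which their coding sequences are most alike. A stretch of 72 coding bases of this box is shown because it allows the factors to be told apart by their bases. Capitals mark the bases that differ from Tcf7, and each stretch lies in 1 coding exon of the transcript that GENCODE names as canonical on GRCm39.
Tcf7, chr11:52147785-52147856, minus strand, exon 8: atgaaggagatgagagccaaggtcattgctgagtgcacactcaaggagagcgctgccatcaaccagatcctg
Lef1, chr3:130988356-130988427, plus strand, exon 8: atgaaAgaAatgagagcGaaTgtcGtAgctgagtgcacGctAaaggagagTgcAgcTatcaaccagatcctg
Tcf7l1, chr6:72608207-72608278, minus strand, exon 9: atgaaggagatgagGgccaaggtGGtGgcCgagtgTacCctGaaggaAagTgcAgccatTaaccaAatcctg
Tcf7l2, chr19:55907396-55907467, plus strand, exon 9: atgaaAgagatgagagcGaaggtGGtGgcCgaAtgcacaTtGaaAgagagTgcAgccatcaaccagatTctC
Lef1 differs from Tcf7 at 11 of the 72 bases, Tcf7l1 at 13 and Tcf7l2 at 14, so 84.7%, 81.9% and 80.6% of the bases are the same. Over the whole coding sequences of the 10 genes, the longest run of identical bases in any of the 45 pairs is 23 bases, found between Tcf7l1 and Lef1, between Tcf7l1 and Tcf7l2 and between Tle1 and Tle3.

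Total reads on genes ranged from 33058719 to 75506562 in the mock libraries and from 13770385 to 15364850 in the p140Cap libraries, so every mock library was the deeper. Srcin1, the transduced gene, had 15.0 ± 1.96 CPM (reads of a gene relative to all reads of the library, mean ± SD, n = 3) in mock and 2343 ± 153 in p140Cap cells, which matches the labels. Mammary epithelial markers were present, with summed levels of 5245 to 5570 CPM in mock and 6184 to 6339 CPM in p140Cap libraries over 6 genes, although Krt19 had under 1 CPM in every library. Of 8 T lymphocyte markers 7, including Ptprc and Cd3e, had 0 reads in all libraries. Macrophage markers summed to between 2.08 and 4.09 CPM over 5 genes with Adgre1 and Cx3cr1 at 0, fibroblast markers to between 9.97 and 14.1 CPM over 5 genes with Col1a2 and Dcn at 0, and endothelial markers to between 0.21 and 0.734 CPM over 4 genes with Kdr at 0. The fibroblast, macrophage and epithelial sums were higher in every p140Cap library than in every mock library. Single genes weighed heavily in the first 2 sums, as Cd68 was the only macrophage marker with reads in p140Cap libraries. Of the fibroblast markers, Col1a1 had means of 2.97 CPM in mock and 5.02 CPM in p140Cap. Pdgfra (7.18 and 7.67 CPM) overlapped between the groups, and Pdgfrb had reads in mock 1 alone. The part of these sums in the results below was not tested.

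All 10 genes had enough reads to be tested. With an adjusted p under 0.05 in edgeR's quasi-likelihood test as the call, with Benjamini-Hochberg adjustment over the 11800 genes tested, 9 of the 10 were called: 6 were higher and 3 lower in p140Cap cells. Calls were frequent in this comparison, with 71.1% of all tested genes called, 35.2% higher and 35.9% lower, and this count of members is therefore read against a high background. For 8 of the 10 genes the level ranges of the 2 groups of 3 libraries did not overlap, against 73.4% of all tested genes. The median log2 fold change (p140Cap against mock) was 0.19 for the 10 genes and 0.00 for all tested genes, and the median size without sign was 0.30 and 0.32. Nothing in these counts sets the family apart from other genes. Tle2 and Tcf7 were the members with the largest changes, one up and one down, and 5.76% and 10.8% of tested genes changed more than they did. The other 8 changed by at most 1.31-fold.

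**Figure D1:**
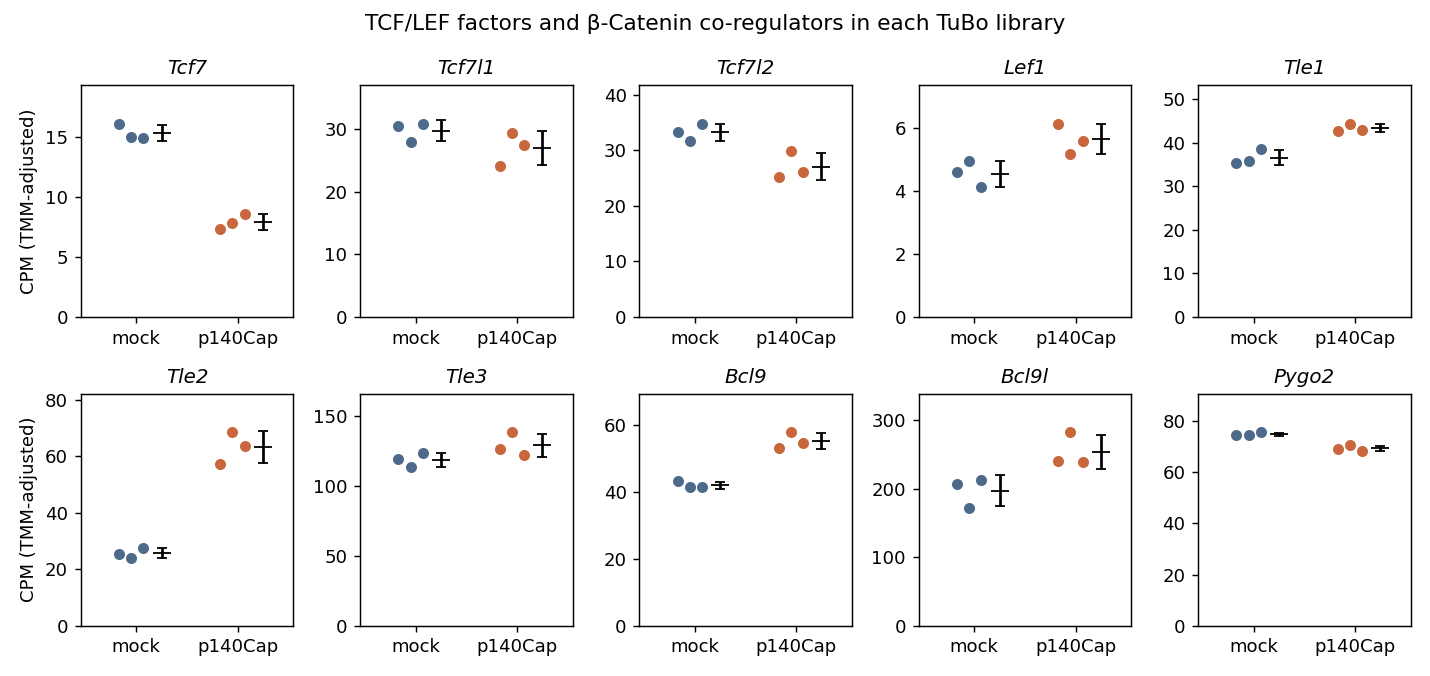
Level of each of the 10 genes, in TMM-adjusted CPM, in the 3 mock (blue) and 3 p140Cap (orange) libraries; points are libraries and the bars beside them give mean ± SD (n = 3), with each axis starting at 0. Tcf7 lies between 14.9 and 16.1 CPM in mock and between 7.32 and 8.59 CPM in p140Cap libraries, Tle2 between 24.0 and 27.5 and between 57.2 and 68.5 CPM, and for Tcf7l1 and Tle3 the points of the groups overlap.

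Among the TCF/LEF factors, Tcf7 fell by about a factor of 1.95, Tcf7l2 fell less, Lef1 rose from a low level, and Tcf7l1 was not called. Tcf7 (ENSMUSG00000000782, chr11:52143107-52174619), which encodes TCF1, had 16.1, 15.0 and 14.9 CPM in the mock libraries and 7.32, 7.83 and 8.59 CPM in the p140Cap libraries. Each p140Cap library lay well under the lowest mock library. The means were 15.3 ± 0.646 and 7.91 ± 0.643 CPM, which is a log2 fold change of -0.96 with an SE of 0.09 (edgeR adjusted p = 5.47e-08). In bulk RNA, fewer cells expressing Tcf7 and less Tcf7 RNA per cell cannot be told apart, and the same holds for every gene below. The fall of Tcf7 was called under all 13 alternative settings, with log2 fold changes between -1.03 and -0.91.

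Tcf7l2 (ENSMUSG00000024985, chr19:55730188-55922091), which encodes TCF4, the main TCF of intestinal epithelium, had 33.2, 31.6 and 34.8 CPM in mock and 25.2, 29.8 and 26.1 CPM in p140Cap libraries. The groups did not overlap, with the highest p140Cap library close under the lowest mock library. On the log2 scale the difference was -0.29 with an SE of 0.07 (edgeR adjusted p = 0.00126), and it was called under all 13 alternatives. Tcf7l2 lies on chromosome 19, on which 65.1% of 424 tested genes were called lower and the median log2 fold change was -0.34. Over the 19 other chromosomes, medians ranged from -0.07 to 0.06. Tcf7l2 thus moved by 0.04 on the log2 scale relative to the median of its chromosome, and the part of chromosome 19 in its fall was not tested. Tcf7, Tcf7l1 and Lef1 lie on chromosomes 11, 6 and 3.

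Lef1 (ENSMUSG00000027985, chr3:130903919-131018005), the factor best known from lymphocytes and from epithelial-mesenchymal signaling in skin and mammary buds, was the rarest of the 10 genes. Its libraries held 351, 196 and 137 reads in mock, or 4.59, 4.93 and 4.11 CPM, and 93, 76 and 76 reads in p140Cap, or 6.13, 5.18 and 5.58 CPM. Each p140Cap library was above each mock library, by a small margin between the nearest pair. This was a log2 difference of 0.30 with an SE of 0.12 (edgeR adjusted p = 0.0314), and this call is fragile: the adjusted p was 0.0663 without mock 1, 0.083 without mock 3, 0.159 without p140Cap 1 and 0.0665 without p140Cap 3, with a range of 0.0223 to 0.159 over the 13 alternatives. In all of them Lef1 was higher in p140Cap cells, with log2 fold changes of 0.23 to 0.38.

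Tcf7l1 (ENSMUSG00000055799, chr6:72603354-72766589), the TCF3 repressor of stem cells, had 30.5, 27.9 and 30.9 CPM in mock and 24.1, 29.4 and 27.4 CPM in p140Cap libraries. The groups overlapped, since p140Cap 2 lay above mock 2. The log2 difference was -0.14 with an SE of 0.07 (edgeR adjusted p = 0.09). Leaving out either of those libraries gave a call, with edgeR adjusted p-values of 0.0331 without mock 2 and 0.0226 without p140Cap 2. Without p140Cap 1 the log2 difference was -0.07 (edgeR adjusted p = 0.445). Over the 13 alternatives it ranged from -0.21 to -0.07, with adjusted p-values of 0.0226 to 0.445. With 3 libraries against 3, an exact two-sided permutation test on a single gene cannot give a p below 0.1, so the calls rest on the spread that edgeR estimates across genes.

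Tle1, Tle2 and Tle3 were each called higher in p140Cap cells, by unequal amounts, although the call of Tle3 was narrow and Tle4, described with the other corepressors, was called lower. Tle2 (ENSMUSG00000034771, chr10:81410395-81427475) had 25.4, 24.0 and 27.5 CPM in mock and 57.2, 68.5 and 63.8 CPM in p140Cap libraries, so that the lowest p140Cap library held over 2 times the level of the highest mock library. Its means were 25.6 ± 1.77 and 63.1 ± 5.65 CPM, a 2.47-fold rise with 1.30 as its log2 value (SE 0.07, edgeR adjusted p = 7.87e-11) and a range of 1.24 to 1.37 over the 13 alternatives. The 3' end of Tle2 shares 433 exonic bases with Tle6, which lies on the opposite strand and itself rose with a log2 fold change of 0.67. Library preparation was stranded, but whether the counting used strand was not given in the sources used here. Tle6 held between 550 and 1980 reads per library, and between 868 and 1942 reads were counted for Tle2.

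Tle1 (ENSMUSG00000008305, chr4:72030376-72119280) had 35.3, 35.8 and 38.6 CPM in mock and 42.8, 44.4 and 43.0 CPM in p140Cap libraries. The groups did not overlap, and the rise was 1.19-fold (0.25 on the log2 scale, SE 0.06, edgeR adjusted p = 0.000816), called under all 13 alternatives. Tle3 (ENSMUSG00000032280, chr9:61279592-61325778) had 119, 113 and 123 CPM in mock and 126, 138 and 122 CPM in p140Cap libraries. Its groups overlapped, as p140Cap 3 lay below mock 3. Its log2 difference of 0.13 with an SE of 0.05 (edgeR adjusted p = 0.047) passed narrowly and was lost without mock 1 (0.09), mock 2 (0.172), p140Cap 1 (0.0728) or p140Cap 2 (0.246), in a range of 0.0189 to 0.246 over the alternatives. The direction of Tle3 was the same in all of them, from 0.07 to 0.16.

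The adaptors that join β-Catenin to Pygopus rose by a similar amount. Bcl9 (ENSMUSG00000038256, chr3:97110409-97205233) had 43.2, 41.4 and 41.6 CPM in mock and 53.3, 57.9 and 54.8 CPM in p140Cap libraries, with no overlap and a tight mock group. It rose 1.31-fold, or by 0.39 on the log2 scale, with an SE of 0.05 (edgeR adjusted p = 5.14e-06). Its paralog Bcl9l (ENSMUSG00000063382, chr9:44394047-44423200) had 206, 171 and 213 CPM in mock and 240, 282 and 239 CPM in p140Cap libraries. Here the libraries of a group varied more, with mock 2 the lowest and p140Cap 2 the highest, but the groups did not overlap. Bcl9l rose by 0.37 on the log2 scale, with an SE of 0.08 (edgeR adjusted p = 0.000424). Both adaptors were called under all 13 alternatives, Bcl9 between 0.36 and 0.42 and Bcl9l between 0.27 and 0.42. Bcl9l shares 118 exonic bases with Cxcr5 on the other strand, and Cxcr5 held 39 reads over the 6 libraries.

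Pygo2 (ENSMUSG00000047824, chr3:89337521-89342435), the Pygopus protein that mammary progenitor cells need, had 74.5, 74.5 and 75.6 CPM in mock and 68.9, 70.6 and 68.4 CPM in p140Cap libraries. The libraries of each group lay close together and the groups did not overlap, but the difference was small, -0.11 on the log2 scale with an SE of 0.05 (edgeR adjusted p = 0.0456). This call was lost without mock 1 (0.088), mock 2 (0.0706), mock 3 (0.0594), p140Cap 1 (0.118) or p140Cap 3 (0.119), in a range of 0.0263 to 0.165, and its direction stayed the same with log2 fold changes from -0.14 to -0.08. β-Catenin itself, Ctnnb1, had 2082, 2080 and 2104 CPM in mock and 2445, 2505 and 2381 CPM in p140Cap libraries, 0.23 higher on the log2 scale with an SE of 0.04 (edgeR adjusted p = 0.000257).

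**Figure D2:**
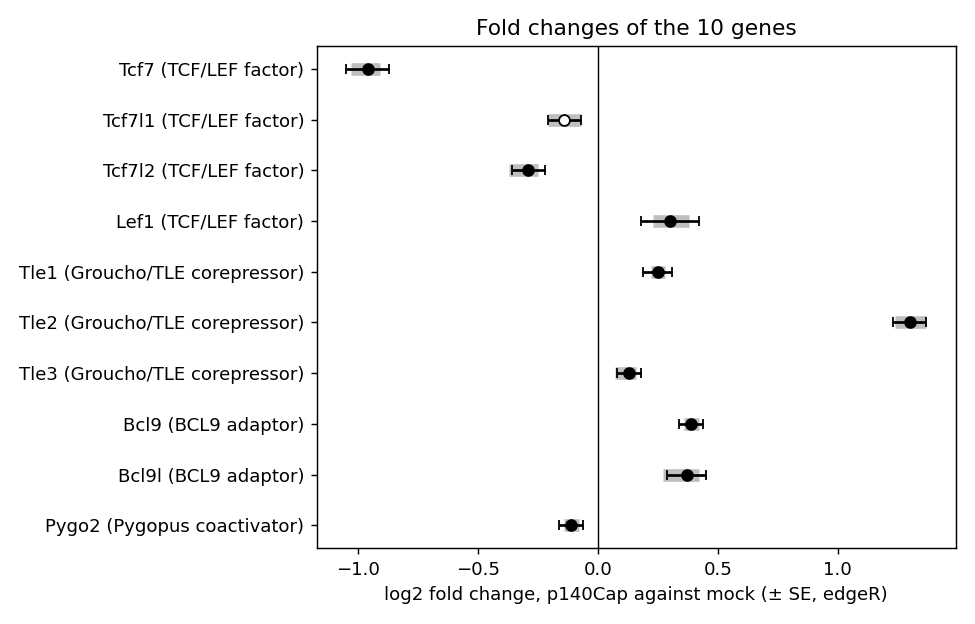
Log2 fold change of each of the 10 genes, p140Cap against mock, with its standard error (whiskers) from edgeR; filled circles were called (adjusted p under 0.05), the open circle was not, and gray bars give the lowest and highest value over 13 alternative settings. Tle2 at 1.30 and Tcf7 at -0.96 stand apart from the other 8 genes, which lie between -0.29 and 0.39, and the gray bars stay on 1 side of 0 for all 10.

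Levels of different genes were compared per length, as CPM per kilobase of merged annotated exons (RPKM). In mock cells the order from high to low was Bcl9l (24.2 RPKM), Pygo2 (20.6), Tle3 (9.76), Tcf7l1 (5.70), Bcl9 (4.63), Tcf7 (3.99), Tcf7l2 (3.70), Tle2 (3.44), Tle1 (2.55) and Lef1 (0.487). The libraries of Tcf7 and Tcf7l2, and of Tcf7l2 and Tle2, overlapped, and no other neighbours in this order did. In p140Cap cells Tle2 moved up to the place after Tle3, with 8.46 RPKM, and Tcf7 moved down to the place before Lef1, with 2.06 RPKM. There the order was Bcl9l (31.3 RPKM), Pygo2 (19.1), Tle3 (10.6), Tle2, Bcl9 (6.09), Tcf7l1 (5.17), Tle1 (3.03), Tcf7l2 (3.02), Tcf7 and Lef1 (0.603), with overlap between the libraries of Tle1 and Tcf7l2 alone among neighbours. Most RNA of the adaptor and Pygopus classes was thus Bcl9l and Pygo2 in both groups, and Lef1 was the rarest in both. The order depends on the gene length that is used. With the canonical transcript, Tle2 (8.95 RPKM) already came directly after Tle3 (22.7) in mock cells, so its place after Tle3 was not new there. Tcf7 (4.41) came just before Tle1 and Lef1 in that mock order. Per length of the canonical transcript, Pygo2 in p140Cap cells had 21.7 RPKM and came after Tle3 (24.7) and Tle2 (22.0), with libraries that overlapped those of Tle2, and Lef1 (2.21) overlapped with Tcf7 (2.28). Bcl9l came first and Lef1 last by mean with each length tried.

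The make-up of the TCF/LEF pool differed between the groups. Tcf7 took 29.4%, 29.4% and 27.4% of the summed RPKM of the 4 factors in the mock libraries and 19%, 17.7% and 20.3% in the p140Cap libraries. Per length of the longest transcript, the mean share of Tcf7 was 19.1% in mock and 12% in p140Cap cells, behind Tcf7l2 with 36.0% and 35.8%, and that of Lef1 was 5.64% and 8.58%. With merged exons Tcf7l1 was the most abundant factor in all 6 libraries, with 41.1%, 40.1% and 42.0% in mock and 46.2%, 48.7% and 47.8% in p140Cap cells. Its share was higher in each p140Cap library although its own level was not called, since the sum fell with Tcf7 and Tcf7l2. Tcf7l2 took 26.7% ± 0.757 and 27.8% ± 1.22 (SD, n = 3), with overlapping libraries, and Lef1 took 3.51% ± 0.425 and 5.60% ± 0.893, with no overlap. The summed level of the 4 factors was 13.9 ± 0.496 RPKM in mock and 10.9 ± 0.785 RPKM in p140Cap cells, without overlap.

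Among the TLE genes, Tle2 took 21.7%, 21.4% and 22.3% of the summed RPKM in mock and 36.3%, 38.7% and 39.5% in p140Cap libraries. Tle3 had the highest share, with a mean of 62.0% in mock and 48.1% in p140Cap cells, and Tle1 took 16.2% and 13.7%. Per length of the longest transcript, the levels of Tle3 (14.9 RPKM) and Tle2 (14.4 RPKM) overlapped in p140Cap cells. The shares of Tle3 and Tle1 were smaller in p140Cap cells while neither gene fell, because Tle2 added to the sum. The summed level of the 3 TLE genes was 15.7, 15.0 and 16.5 RPKM in mock and 21.1, 23.7 and 21.6 RPKM in p140Cap libraries. The ratio of summed TLE to summed TCF/LEF level was 1.10, 1.13 and 1.17 in mock and 2.11, 2.05 and 1.96 in p140Cap libraries, with means of 1.13 ± 0.033 and 2.04 ± 0.0721. Tle4, which fell, is not in this sum, and with it the ratio was 1.40 ± 0.0267 in mock and 2.28 ± 0.0892 in p140Cap cells, a sum chosen after the values were seen. These shares and ratios are descriptions of RNA levels, given without a test.

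**Figure D3:**
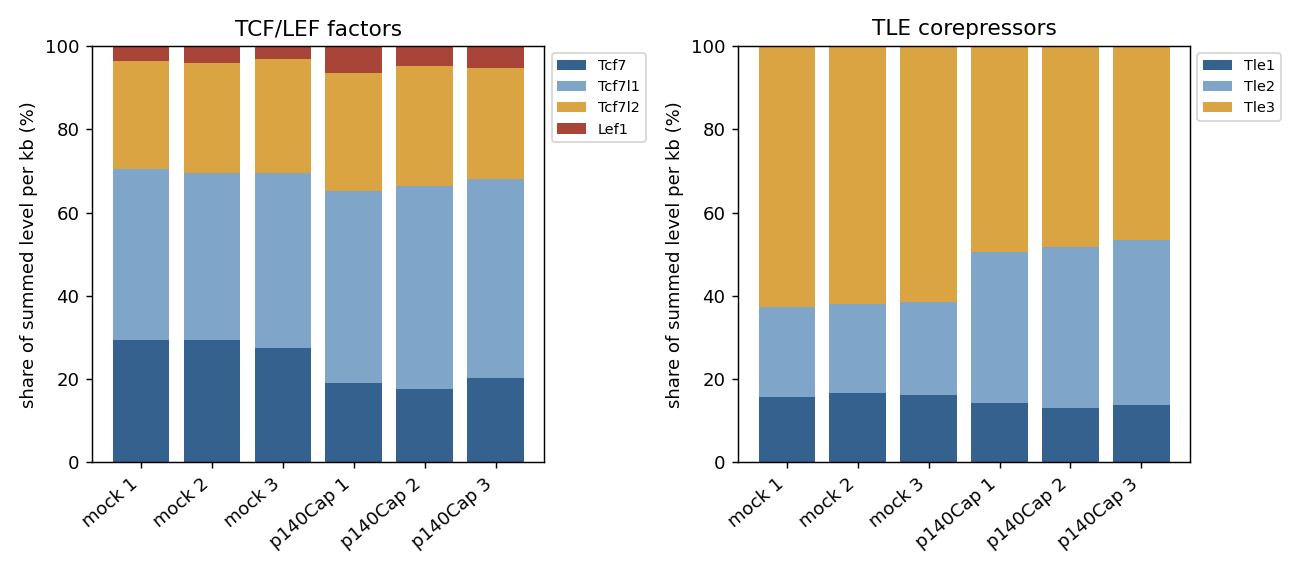
Share of each gene, in percent, in the summed level per kilobase of merged exons of the 4 TCF/LEF factors (left) and of Tle1, Tle2 and Tle3 (right), 1 stacked bar per library. Tcf7 takes 27.4% to 29.4% in mock and 17.7% to 20.3% in p140Cap libraries, and Tle2 takes 21.4% to 22.3% and 36.3% to 39.5%.

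TCF/LEF factors bind the core CTTTG followed by 2 bases that are each A or T, so the promoters of the 10 genes were searched for these 4 heptamers on both strands, with overlapping matches allowed. RefSeq promoters (GRCm38.p6, 250 bases before to 50 after a start) were at hand for 9 of the 10 genes. Of their 16 promoters 2 held a match, while 16.9% of 32851 promoters of all genes did. The matches are shown, in capitals with 10 bases on each side, because the family can be regulated by its own products.
Tcf7l2, chr19:55895297-55895323, plus strand, 14 bases before a start: aaatatcaggCTTTGTTcttttgattg
Lef1, chr3:131156137-131156163, plus strand, match on the reverse strand 147 bases before a start: aacctcagaaTACAAAGtaggattgca
Tcf7l2 has 2 promoters in that set and Lef1 has 4, and only 1 of each holds a match. No match was found in the 2 promoters of Tcf7 or the 1 of Tle2, which says only that these letters are not in those windows.

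Other proteins that serve the same complex moved in both directions. Of 12 other coactivators, a list that counts β-Catenin itself among those higher, all were tested and 6 were called higher and 4 lower, with a median log2 fold change of 0.15, where 71.1% of all tested genes were called. Tnik, a kinase that phosphorylates TCF7L2, rose from 155 ± 5.28 to 263 ± 4.31 CPM (0.76 on the log2 scale, edgeR adjusted p = 4.15e-10). Tbl1xr1 and Tbl1x, exchange factors that bind β-Catenin at target genes, rose by 0.76 and 0.43 on the log2 scale. Pygo1, the other Pygopus gene, rose by 3.58 on the log2 scale (SE 0.32, edgeR adjusted p = 3.66e-08) but from 0.125 to 1.56 CPM, that is, from between 4 and 10 reads per mock library to between 18 and 26 per p140Cap library, far below Pygo2. Ruvbl1, the ATPase pontin, fell from 75.7 ± 1.78 to 43.0 ± 0.544 CPM (-0.81 on the log2 scale, edgeR adjusted p = 5.51e-10). Carm1, Smarca4 and Cdc73, which modify or remodel chromatin or act with the polymerase, fell by 0.28, 0.18 and 0.16 on the log2 scale.

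Of 14 corepressors and antagonists outside the 3 TLE members, 12 were tested, of which 8 were called lower and 3 higher, with a median log2 fold change of -0.31. Of all tested genes 35.9% were called lower and 35.2% higher, with a median of 0.00. The remaining pair, Sox7 and Sox17, had 0 reads in all libraries. Tle4, the fourth full-length TLE gene, fell from 25.9 ± 0.742 to 18.5 ± 0.463 CPM (-0.48 on the log2 scale, edgeR adjusted p = 5.37e-06), opposite in sign to Tle1, Tle2 and Tle3. Like Tcf7l2, it lies on chromosome 19. Hdac1 and Hdac2, deacetylases recruited by TLE proteins, both fell by 0.46 on the log2 scale. Ctnnbip1, the inhibitor ICAT that keeps β-Catenin off TCF, fell by 0.43. Hbp1, a repressor that binds TCF7L2, rose by 0.67 (edgeR adjusted p = 1.7e-09), as did Tle6, a shorter TLE relative, by 0.67 (adjusted p = 1.36e-07). Aes, now named Tle5, a truncated relative that can oppose full-length TLE proteins, rose by 0.41 (adjusted p = 1.44e-05).

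Genes known as β-Catenin/TCF targets were called in both directions. Of 24 genes 14 were tested, and 6 were called lower and 5 higher, against 35.9% and 35.2% of all tested genes. The median log2 fold change was -0.06, near the 0.00 of all tested genes. Plaur, the urokinase receptor, and Myc fell by 1.54 and 0.73 on the log2 scale (adjusted p = 2.88e-10 and 8.18e-09, edgeR), and Birc5 and Bambi fell by 0.35 and 0.32. Ephb2, a receptor of crypt cells, rose from 3.60 ± 0.579 to 10.3 ± 0.672 CPM (1.52 on the log2 scale, edgeR adjusted p = 8.41e-09), and Cd44, Sox9 and Fzd7 rose by 0.49, 0.48 and 0.38. Ccnd1 had 1415 ± 21.8 and 1432 ± 12.6 CPM and was not called. Several targets were hardly expressed: Nkd1, Sp5, Mmp7, Dkk1 and Dkk4 had 0 reads in every library, and the feedback gene Axin2 had 15 reads per mock library against 0, 2 and 0 in p140Cap. Axin2 had too few reads for the test, and relative to depth its mock level was 6.54 times the p140Cap level, with a 95% exact counting interval of 1.71 to 55.6. Both p140Cap reads came from p140Cap 2, so the ratio rests on that library. The 5 alternatives that kept Axin2 gave it a lower level in p140Cap cells, with adjusted p-values of 0.00449 in edgeR without a filter, 0.00684 without p140Cap 2 and 0.0389 in DESeq2, and of 0.0702 without p140Cap 1 and 0.0656 without p140Cap 3.

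**Figure D4:**
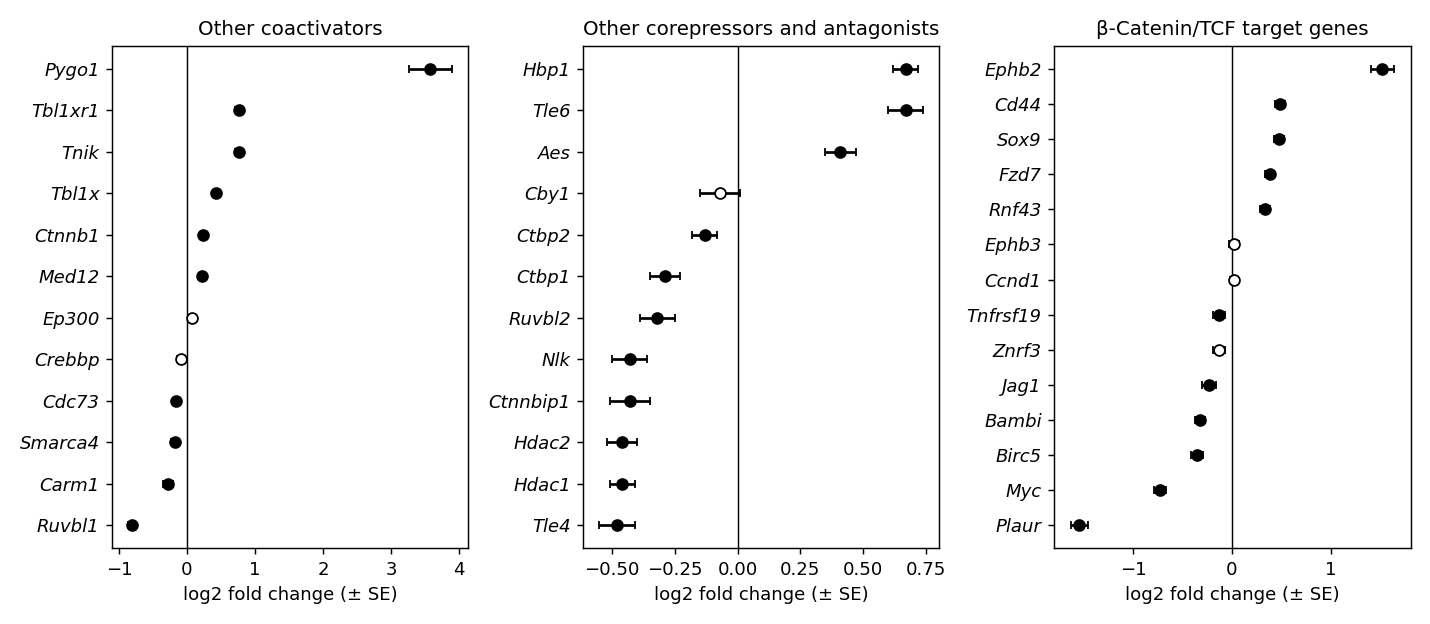
Log2 fold change, p140Cap against mock, with its standard error from edgeR, of the tested genes of 3 lists: other coactivators (12 genes), other corepressors and antagonists (12) and target genes (14); filled circles were called and open circles were not, and the axes of the panels differ in scale. Called genes lie on both sides of 0 in each list, from Ruvbl1 at -0.81 to Pygo1 at 3.58, from Tle4 at -0.48 to Tle6 and Hbp1 at 0.67, and from Plaur at -1.54 to Ephb2 at 1.52.

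The tested genes whose profile over the 6 libraries was most like that of Tle2, the member with the largest change, were Plekhg6, Plod1 and 1700029J07Rik. Likeness was the Euclidean distance between log2 CPM profiles centred on their means, and these genes had distances of 0.0953, 0.126 and 0.137 among 11799 genes compared. Their log2 fold changes were 1.31, 1.30 and 1.26, and the choice by profile fixes that these lie close to the value of Tle2.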

How the data were processed

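RNA-Seq of 3 mock and 3 p140Cap TuBo libraries was analysed. Read counts of each gene were deposited by the authors as whole numbers per library, not normalized. The submitters' processing notes name STAR 2.5, RSEM 0.1.1 and the build mm10, so the counts may be rounded estimates, while the paper names GRCm39. No annotation release was given in the sources used here. Labels do not say whether replicates came from separate cultures, so p-values measure the spread between these samples, which may be technical.

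In R 4.3.3, counts were scaled with TMM factors, filtered with filterByExpr and tested for condition alone with edgeR 4.0.16 (quasi-likelihood test), and p-values were adjusted by Benjamini-Hochberg and called under 0.05. CPM used the TMM-adjusted library sizes. SE is the size of the log2 fold change over the root of its F statistic. The script was tested on simulated data in which few genes changed, so that test does not cover a comparison in which most genes were called. RPKM is CPM per kilobase of merged exons. Gene positions are from GENCODE on GRCm39, matched by Ensembl identifier for 98.6% of genes. The counting interval is exact binomial on reads pooled over each group and covers counting error only. The common coefficient of variation was 4.57%. Pairs of libraries within a group had mean chi-square values of 1.75 to 10.7, so no library had counts identical to those of another in its group. These values do not tell whether libraries came from separate cultures.

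The members and lists were chosen with earlier results of these data known. Genes named are the 10 members, Srcin1, Ctnnb1, Axin2, in each list the called genes with the 4 highest and 4 lowest fold changes (3 corepressors were higher), and the 3 genes most like the member with the largest change. Genes with 0 reads, Ccnd1, Krt19, overlapping genes, markers and Zfr2 were named after their values were seen. Alternatives were DESeq2 1.42.0, limma-voom (limma 3.58.1), RLE factors, no filter, at least 10 reads in every library, each library left out, the replicate number as a block, and thinning to the smallest library.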

Additional observations from a re-analysis of the deposited data

How the results depend on the processing

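Of 130 log2 fold changes of the 10 genes under 13 alternatives, 104 kept their side of the threshold, and no sign changed. Tcf7, Tcf7l2, Tle1, Tle2, Bcl9 and Bcl9l were called in every setting, and the 324 such values of Srcin1, Ctnnb1 and the called list genes that the rule names kept sign and call. Over the same alternatives, the members called numbered 4 to 6 higher and 2 to 4 lower, coactivators 5 to 6 and 4 to 5, corepressors 3 and 7 to 8, and targets 5 and 5 to 8. Axin2, which the main test left out, was called in some of its alternatives and not in others. Alternatives were not run for Plekhg6, Plod1, 1700029J07Rik, Ccnd1 and Zfr2. Lef1, Tle3 and Pygo2 were not called by DESeq2 (adjusted p = 0.134, 0.0746 and 0.068); Lef1 and Tle3 were not called without a filter (0.0529 and 0.13), Lef1 and Pygo2 after thinning (0.0555 and 0.165), nor Tle3 with at least 10 reads in every library (0.056), and Tcf7l1 was called without a filter (0.027). The cause was not tested. Libraries of the same number did not deviate together (correlations of -0.0299, -0.106 and -0.0573). Whether equal numbers mark a pairing was not given in the sources used here. With the replicate number as a block in edgeR, 8034 genes were called in place of 8388, and Tle3 (0.12, adjusted p = 0.0942) and Pygo2 (-0.11, adjusted p = 0.0895) were not. Less the median of chromosome 19, a value chosen after seeing the data, the log2 difference of Tcf7l2 was 0.04.

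Gene length moved the shares of the TCF/LEF sum. With the longest transcript, mock and p140Cap shares were 19.1% and 12% for Tcf7, 39.3% and 43.5% for Tcf7l1, 36.0% and 35.8% for Tcf7l2 and 5.64% and 8.58% for Lef1. With the canonical transcript, chosen after seeing the data, they were 19.2% and 12%, 38.1% and 41.8%, 35.0% and 34.5%, and 7.78% and 11.7%. Shares of the TLE sum with the canonical transcript were 10.9% and 8.94% for Tle1, 25.2% and 42.9% for Tle2 and 63.9% and 48.2% for Tle3. The ratio of TLE to TCF/LEF level was 1.06 and 1.89 with the longest and 1.54 and 2.71 with the canonical transcript. Isoform use is not visible in gene counts, and among the 10 genes Lef1 had the fewest reads in p140Cap libraries.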

Other observations

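Tle2 lies in a cluster of TLE relatives on chromosome 10 (GRCm39), between Aes at chr10:81394984-81402229 and Tle6 at chr10:81426738-81436907, and all 3 genes of the cluster were called higher in p140Cap cells, with log2 fold changes of 1.30 for Tle2, 0.41 for Aes and 0.67 for Tle6, where 35.2% of all tested genes were called higher. The cluster was looked at because Tle2 was the member that rose most, so the call of Tle2 was fixed by that choice. Tle6 shares 433 exonic bases with Tle2, and whether the counting used strand was not given, so their calls may not be independent. Within 500 kb of Tle2, a distance chosen after the values were seen, 32 other genes were tested. Of these 15 were called higher and 8 lower by edgeR, against 35.2% and 35.9% of all tested genes. Their log2 fold changes ranged from -4.13 to 1.80, the highest being Zfr2, and had a median of 0.13.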
